A study of Rattus norvegicus with 34 samples.

Results

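The Cyp3a genes encode cytochrome P450 enzymes of family 3A, which oxidise steroids, bile acids and a wide range of drugs in the liver. The genes described here are Cyp3a2, Cyp3a9, Cyp3a18 and Cyp3a23-3a1, chosen by their gene symbols in the array's annotation. Each of the 4 has a single probe set on the array (1370593_at for Cyp3a2, 1370387_at for Cyp3a9, 1398307_at for Cyp3a18 and 1387118_at for Cyp3a23-3a1), so no choice between probe sets was needed. They are 4 of 9214 genes tested in F344 rats and 4 of 8586 genes tested in Brown Norway rats. All 4 lay above the signal floor of 32 on all 34 arrays.

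The series holds livers of male rats of 2 inbred strains, each liver from 1 animal on 1 Affymetrix Rat 230 2.0 array, and both strains were followed with age. Brown Norway rats were killed at 4, 12 or 24 months, either 4 h after a gavage of 1 g/kg toluene in corn oil (3 rats an age) or as controls (3 rats an age). The labels give the controls no treatment and name no vehicle for them, so toluene and the corn oil and gavage given with it cannot be told apart. F344 rats (4 an age) were killed at 6, 11, 18 or 24 months, untreated, and came from the supplier a week before necropsy. Brown Norway rats were housed individually, both strains were kept on a 12-h light-dark cycle, and the hour of killing is not given in the sources used here. The values are linear probe set signals, and the arrays of the strains may have been normalised apart. Levels are therefore compared within a strain, and only the effects of age are set against each other across strains.

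In the rat liver the family is divided by sex. Cyp3a2 and Cyp3a18 are known as male-predominant enzymes, while Cyp3a9 is known as a female-predominant member. Sex differences of rat liver genes depend on the pattern of growth hormone secretion, in part through the transcription factor STAT5b. Cyp3a23-3a1 is the classic inducible member, switched on by drugs and steroids through the nuclear receptor PXR (gene Nr1i2), with the related receptor CAR (Nr1i3) acting on many of the same genes.

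All 8 Cyp3a genes of the rat reference lie on chromosome 12, and 4 have a probe set named for them. Cyp3a23-3a1 is the next protein-coding gene after Cyp3a2. Cross-hybridisation between such near relatives was not tested, since probe sequences were not used here. The promoters of Cyp3a23-3a1, Cyp3a2 and Cyp3a18 are shown because the first pair share a PXR-type element, while the second pair fell together in old F344 livers. The stretch from 190 to 61 bases before the start of each gene is given in the gene's own direction, from RefSeq on build GRCr8. Capitals mark, in this order, the direct repeat TGAACTNNNTGAACT, the spacing by which PXR is known to bind Cyp3a promoters, and CAAAGTCCA, a motif of the liver factor HNF4.
Cyp3a23-3a1: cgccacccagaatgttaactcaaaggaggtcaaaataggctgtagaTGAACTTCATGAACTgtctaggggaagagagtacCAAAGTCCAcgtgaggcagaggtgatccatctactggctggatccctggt
Cyp3a2: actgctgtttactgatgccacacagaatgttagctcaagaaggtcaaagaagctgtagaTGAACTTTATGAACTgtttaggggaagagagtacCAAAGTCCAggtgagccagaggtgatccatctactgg
Cyp3a18: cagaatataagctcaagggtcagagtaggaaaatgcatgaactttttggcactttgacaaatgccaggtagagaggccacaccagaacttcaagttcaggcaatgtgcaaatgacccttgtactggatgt

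The stretches lie at chr12:14398864-14398993 on the minus strand for Cyp3a23-3a1, chr12:14343918-14344047 on the minus strand for Cyp3a2 and chr12:13994122-13994251 on the plus strand for Cyp3a18. The repeat was found 144 to 130 bases before the start of Cyp3a23-3a1 and 131 to 117 bases before that of Cyp3a2. These were the 2 matches among 27457 RefSeq promoters (0.00728%), over the 250 bases before each start and on both strands. The motif was chosen with these promoters in mind, so its rarity is a description. CAAAGTCCA followed at 110 to 102 bases in Cyp3a23-3a1 and at 97 to 89 bases in Cyp3a2, and occurred in 91 promoters (0.331%). The everted repeat TGAACTNNNNNNAGGTCA, a further PXR-type element, had an exact match in 0 of the promoters. Only exact letters were searched, so near matches were neither counted nor marked. The stretch ttaactcaaaggaggtca in the Cyp3a23-3a1 promoter is such a near match to the everted repeat. The STAT5 motif TTCNNNGAA occurred in 2066 promoters (7.52%) and in none of the 4 Cyp3a windows. Over the 250 bases Cyp3a2 and Cyp3a23-3a1 were identical at 79.2% of aligned positions, against 53.0% to 58.5% for the other pairs.

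**Figure D1:**
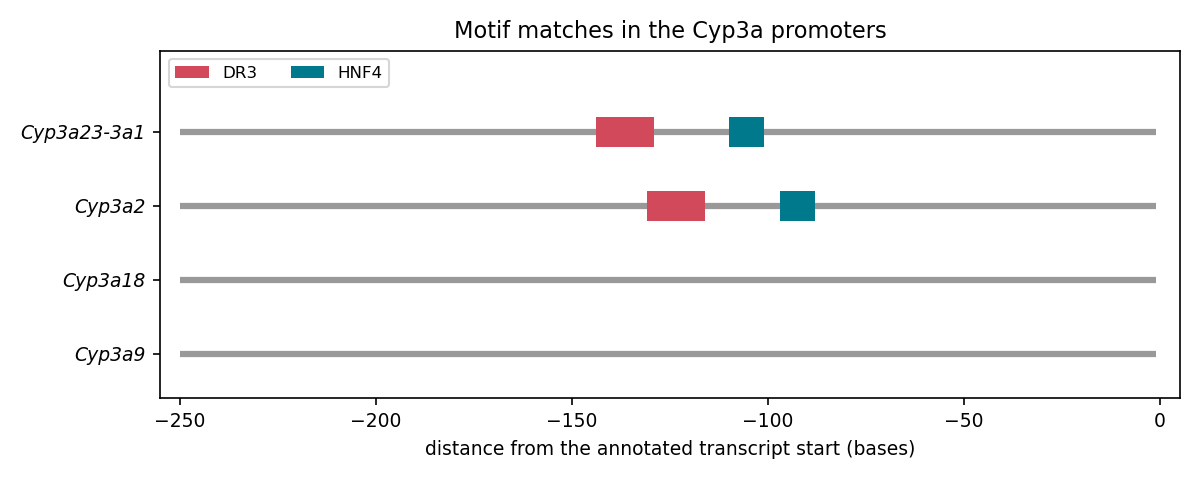
Positions of exact matches to the searched motifs in the promoters of the 4 Cyp3a genes. They are plotted as bases before the annotated start of each gene, with 1 line a gene. The PXR-type direct repeat (marked DR3) and the HNF4 motif stand in the same order in Cyp3a23-3a1 and Cyp3a2, and neither motif was matched in Cyp3a18 or Cyp3a9.

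In F344 rats the question was how the family changes from young adulthood to old age. At 24 months Cyp3a2 and Cyp3a18 fell, by 21.4-fold and 2.94-fold against 6 months, while Cyp3a9 and Cyp3a23-3a1 did not pass the test. No member passed at 11 or 18 months. The lower signals of Cyp3a2 and Cyp3a18 appeared between 18 and 24 months, while the signals of the other two members overlapped at all ages.

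Cyp3a2, the main male P450 of the family, had signals of 5398, 4095, 4882 and 5707 at 6 months. The signals were 5185, 5482, 5806 and 5123 at 11 months, and 5476, 5583, 4062 and 5490.3 at 18 months. At 24 months they were 219, 210.5, 542 and 117. Every 24-month rat lay below every younger rat, with no overlap, whereas the 3 younger ages overlapped. The means were 5021 ± 705 at 6 months, 5399 ± 313 at 11 months, 5153 ± 729 at 18 months and 272 ± 186 at 24 months (SD, n = 4 each). The log2 fold change of 24 against 6 months was -4.42 (SE 0.30, limma adjusted p = 1.057e-07), and of 24 against 18 months -4.46 (SE 0.30, limma adjusted p = 1.818e-07).

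Cyp3a18, which hydroxylates steroids such as testosterone, had signals of 2874, 3176, 3244 and 4217 at 6 months. The signals were 3048, 3576, 4146 and 4189 at 11 months, and 4071, 3186, 3200.1 and 3245 at 18 months. At 24 months they were 1288, 817, 1774 and 891. Again all 4 of the oldest rats lay below all younger ones, and the younger ages overlapped. The 24-month mean was 1193 ± 439.6 (SD, n = 4), against 3426 ± 431 at 18 months and 3378 ± 582 at 6 months (SD, n = 4 each). The log2 fold change was -1.56 for 24 against 6 months (SE 0.21, limma adjusted p = 0.0002212) and -1.58 for 24 against 18 months (SE 0.21, limma adjusted p = 0.000362). The 95% confidence interval of the 24 against 6 month change ran from -1.99 to -1.12 for Cyp3a18 and from -5.06 to -3.78 for Cyp3a2, so the intervals of these log2 changes did not meet. Among the oldest rats, replicate 3 had the highest signal of both genes.

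Cyp3a9, the female-predominant member, had signals of 570.3, 736, 975 and 1460.5 at 6 months, and of 836, 890.0, 718 and 1057 at 11 months. The signals were 1108, 347, 701 and 709 at 18 months, and 828, 756, 747 and 1156 at 24 months. All 4 ages overlapped, and the spread at 6 months covered the whole range at 24 months. The log2 fold change of 24 against 6 months was -0.04, with a 95% confidence interval from -0.69 to 0.61 (limma adjusted p = 0.9717).

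Cyp3a23-3a1, the inducible member, was measured with the smallest error of the 4 members in F344 rats. Its signals were 4617, 4766, 4738 and 4088 at 6 months, 4920, 4303, 4705 and 4690.1 at 11 months, 4828, 4593, 4320.3 and 4919 at 18 months, and 4067, 4079.9, 4806 and 3861 at 24 months. The oldest rats overlapped with the youngest, and the log2 fold change of 24 against 6 months was -0.12, with a 95% confidence interval from -0.33 to 0.09 (limma adjusted p = 0.5651). This interval does not reach the log2 changes of Cyp3a2 or Cyp3a18.

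**Figure D2:**
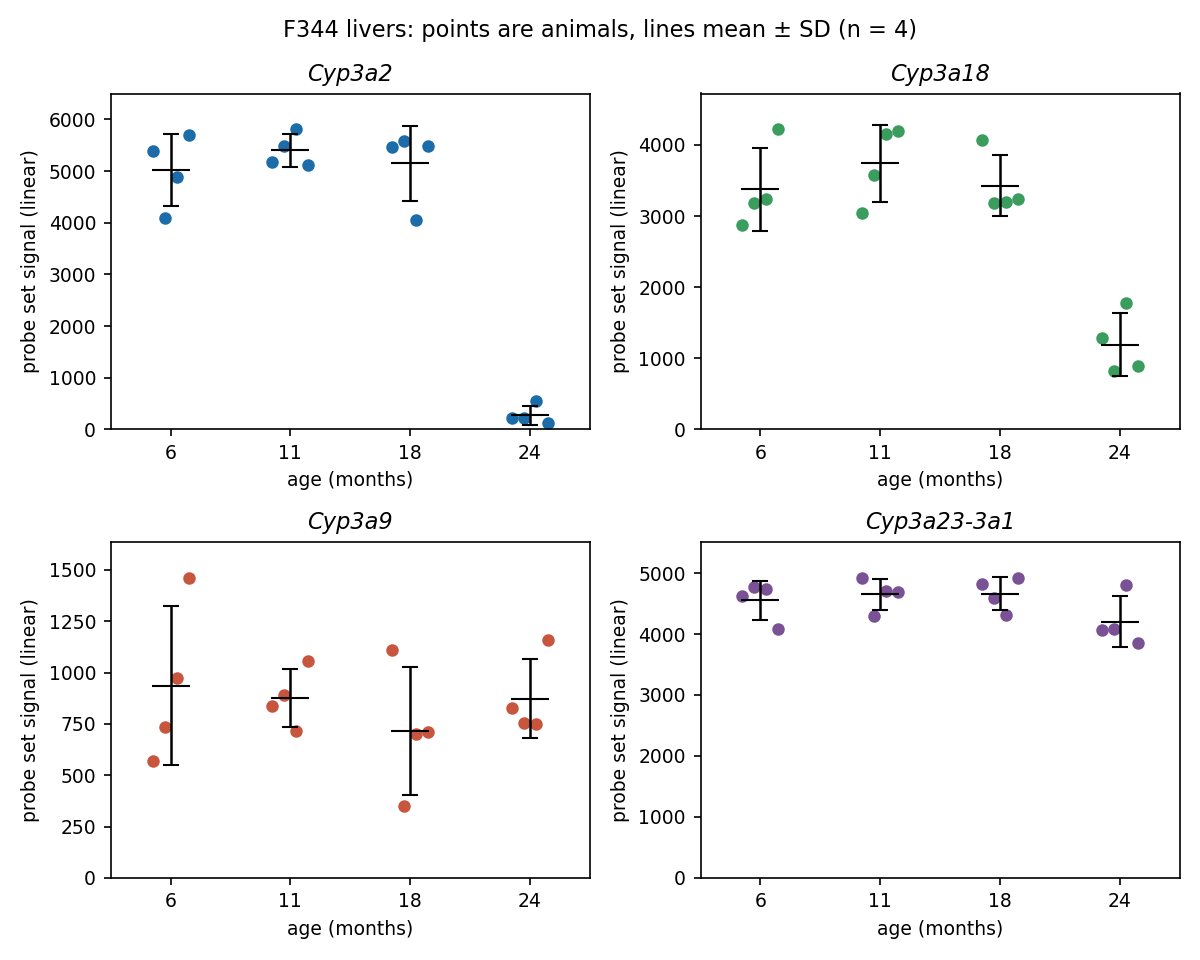
Linear probe set signal of the 4 Cyp3a genes in F344 livers against age in months, with points for animals and lines for mean ± SD (n = 4 an age). Cyp3a2 and Cyp3a18 separate at 24 months from every younger animal, and Cyp3a9 and Cyp3a23-3a1 overlap at all ages.

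In counts, 2 of 4 members were called lower at 24 against 6 months, where 7.4% of the 9214 genes were called in either direction and 2.96% lower. At 24 against 18 months 2 of 4 were called lower, where 1.79% were called and 0.879% lower. At 18 against 6 months limma called 0 of 4, with 0 at an unadjusted p under 0.05, and 1.07% of all genes. At 11 against 6 months it called 0 of 4, again with 0 at an unadjusted p under 0.05, and 0% of all genes. The members' median log2 fold change was -0.84 at 24 against 6 months, against -0.01 over all genes tested. In each member the order of mean levels over the 3 younger ages rested on overlapping values.

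The genes of the pathway were read from lists. The regulators of Cyp3a gave 0 of 18 genes tested at 24 against 6 months, with a median log2 fold change of -0.10. Among them PXR (Nr1i2) averaged 191 ± 36.4 at 24 months and 229 ± 22.9 at 6 months (SD, n = 4 each), a log2 fold change of -0.28 (limma adjusted p = 0.5102). CAR (Nr1i3) averaged 52.2 ± 32.6 at 24 months, where 1 array was at the floor, and 127 ± 58.0 at 6 months (SD, n = 4 each), and did not pass either (log2 fold change -1.35, limma adjusted p = 0.1173). Other targets of PXR and CAR gave 1 higher and 1 lower of 13 tested. These were Gsta3, a glutathione transferase (log2 fold change 1.45, limma adjusted p = 0.01973), and Slco1a4, an uptake transporter (log2 fold change -0.64, limma adjusted p = 0.03527). The P450 partners and haem genes gave 1 higher and 1 lower of 13: Hmox1, which breaks down haem, at a log2 fold change of 1.07 (limma adjusted p = 0.01101), and Pgrmc1, a haem-binding partner of P450s, at -0.33 (limma adjusted p = 0.04906). Por, the reductase that feeds electrons to P450s, did not pass (log2 fold change 0.17, limma adjusted p = 0.7476). Each of these calls on Gsta3, Slco1a4, Hmox1 and Pgrmc1 was lost under at least 1 other processing setting.

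Genes of male pattern in rat liver were all lower: 7 of 7 tested were called lower at 24 against 6 months, with a median log2 fold change of -4.44. Cyp2c11, the main male P450 of rat liver, averaged 316 ± 191 at 24 months and 5855 ± 299 at 6 months (SD, n = 4 each). Sult1e1, the oestrogen sulphotransferase, averaged 280 ± 157 at 24 months and 6365 ± 312 at 6 months. Obp3 (log2 fold change -4.60) and Hsd3b5, at the floor on 1 array at 24 months, were the other two of smallest p. The male-pattern count was 6 of 7 without the F344 arrays of a GAPDH 3'/5' ratio above 2.5, a ratio that rises as RNA degrades. Of the genes listed here as female pattern, 8 of 10 were called higher and 1, Fmo1, lower (named after its values were seen). All rats were male, so the sex pattern of Fmo1 and the other listed genes was not tested. Trim24 averaged 674 ± 108 at 24 months and 44.0 ± 5.04 at 6 months (SD, n = 4 each). Cux2, a repressor of male genes in female liver, averaged 139 ± 19.0 at 24 months and was at the floor on all 4 arrays at 6 months. Akr1b7 was likewise at the floor on all 4 arrays at 6 months and averaged 2183 ± 775 at 24 months. Prlr, the prolactin receptor, averaged 1368 ± 337 at 24 months and was at the floor on 2 of the 4 arrays at 6 months. Of the growth hormone axis 3 of 11 were called higher, namely Trim24, Cux2 and Prlr, and 0 lower. These 3 genes are also in the female-pattern list, so the same calls are counted in both lists. Earlier results of these data were known when the lists were drawn up, so these counts are no independent support.

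At 24 against 18 months the same lists gave 7 of 7 lower for the male pattern (median log2 fold change -4.03, and 4 of 7 with only the compared groups in the fit), 7 of 10 higher for the female pattern and 3 of 11 higher for the growth hormone axis. The calls of the axis were again Trim24, Cux2 and Prlr, which the female pattern also counts. The regulators, the partners and haem genes and the other PXR and CAR targets each gave 0. At 18 against 6 months Prlr was the single gene of the lists to be called (log2 fold change 2.85). PXR (Nr1i2), CAR (Nr1i3) and Por did not pass in any comparison of either strain.

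Across the 16 F344 arrays, the pattern of Cyp3a2 was most like those of Ust5r (Pearson r of log2 signal 0.987), Hsd3b5 (0.985), Cyp2c11 (0.981), Sult1e1 (0.981) and Obp3 (0.972). Its most opposed genes were Slc39a10 (-0.987), A1bg (-0.981) and Cux2 (-0.975). For Cyp3a18 the nearest were Hsd11b1 (0.962), Sult1e1 (0.961), Cdh17 (0.960), Mup5 (0.960) and Cyp2a2 (0.953), and the most opposed A1bg (-0.959), Hdc (-0.952) and Slc39a10 (-0.952). Cyp3a2 and Cyp3a18 had an r of 0.964 with each other, and Cyp3a2 had -0.14 with Cyp3a9. For Cyp3a9 the nearest gene, Apba3, reached 0.781, followed by Zbtb38, Pabir1, Adck2 and Cth, and the most opposed were Dnase2 (-0.794), Pcolce and Sh3bp4. For Cyp3a23-3a1 the nearest were Pigt (0.851), Zfp623, RT1-CE5, Plekhg5 and Tmem69, and the most opposed Gulp1 (-0.905), Nipal1 and Hnrnpa1. The points share the 4 oldest rats, which carry most of the spread of Cyp3a2 and Cyp3a18, so these are descriptions without a test.

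In Brown Norway controls Cyp3a9 was 3.22-fold lower at 24 than at 4 months and was the only 1 of the 4 members to pass. Cyp3a18 and Cyp3a23-3a1 also had lower signals in all 3 of the oldest controls than in the 4-month controls, at an unadjusted p under 0.05 that did not hold after adjustment. Cyp3a2 overlapped between the ages. No member passed between 4 and 12 months.

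Cyp3a9 had signals of 2267, 2786 and 2408 in controls at 4 months, 1859.6, 2378 and 2089 at 12 months, and 647, 1216 and 581 at 24 months. All 3 of the oldest controls lay below all 6 younger ones, while the 4 and 12 month controls overlapped. The means were 2487 ± 268 at 4 months, 2109 ± 260 at 12 months and 815 ± 349 at 24 months (SD, n = 3 each). Limma put the log2 fold change of 24 against 4 months at -1.68 (SE 0.28, limma adjusted p = 0.0236). Against 12 months it was -1.45 (SE 0.28, limma adjusted p = 0.07487), which did not pass. The call at 24 against 4 months was lost without any 1 of the 4-month controls or without 24-month control replicate 1, with adjusted p from 0.06965 to 0.09801 and log2 fold changes from -1.75 to -1.56.

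The toluene-dosed rats give the same ages in other animals. Their Cyp3a9 signals were 2398, 2490.1 and 2574 at 4 months, 2366, 2177 and 1386 at 12 months, and 675, 1444 and 931 at 24 months. All 3 dosed rats of 24 months lay below all dosed rats of 4 months, and 1 of them lay above the lowest dosed rat of 12 months. The log2 fold change of 24 against 4 months was -1.36 in dosed rats (SE 0.28, limma adjusted p = 0.0739), which did not pass, as 0.268% of genes did. With control and dosed rats of each age averaged, an analysis added after seeing the data, Cyp3a9 was 2.87-fold lower at 24 than at 4 months (log2 fold change -1.52, SE 0.20, limma adjusted p = 0.001637). It was 2.33-fold lower at 24 than at 12 months (log2 fold change -1.22, SE 0.20, limma adjusted p = 0.01954). In these averaged comparisons 0.85% and 0.128% of genes were called, and Cyp3a9 was the single member called in each.

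Cyp3a2 had signals of 4814, 4185 and 5007 in controls at 4 months, 3449, 4748 and 4593 at 12 months, and 3754, 4743 and 1886 at 24 months. The ages overlapped, with 2 of the oldest rats inside the range of the younger ones and replicate 3 far below. From 4 to 24 months it had a log2 fold change of -0.53, with a 95% confidence interval from -1.24 to 0.18 (limma adjusted p = 0.6121), and it was -0.14 without that rat.

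Cyp3a18 had signals of 4499, 3615 and 4269.7 in controls at 4 months, 3870.1, 3813 and 4385 at 12 months, and 2439, 3208 and 1108 at 24 months. All 3 of the oldest rats lay below all 6 younger controls. For 24 against 4 months the log2 fold change was -1.001 (SE 0.37), with an unadjusted p of 0.0163 by limma and an adjusted p = 0.2979, so it did not pass, and it was -0.56 without 24-month replicate 3.

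Cyp3a23-3a1 had signals of 4229, 4446 and 4877 in controls at 4 months, 4155, 4749 and 3417 at 12 months, and 2699, 4105 and 3455 at 24 months. The oldest rats lay below the 4-month rats and overlapped with the 12-month rats. Its log2 fold change of 24 against 4 months was -0.42 (SE 0.14), with an unadjusted p of 0.0107 by limma and an adjusted p = 0.2495. In counts, 1 of 4 members was called lower at 24 against 4 months, where 0.245% of 8586 genes were called and 0.0699% lower. The members' median log2 fold change was -0.77, against 0.00 over all genes. At 24 against 12 months limma called 0 of 4, with 2 at an unadjusted p under 0.05 and 0.0233% of all genes called, and at 12 against 4 months 0 of 4, with 0 at an unadjusted p under 0.05 and 0% of all genes.

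**Figure D3:**
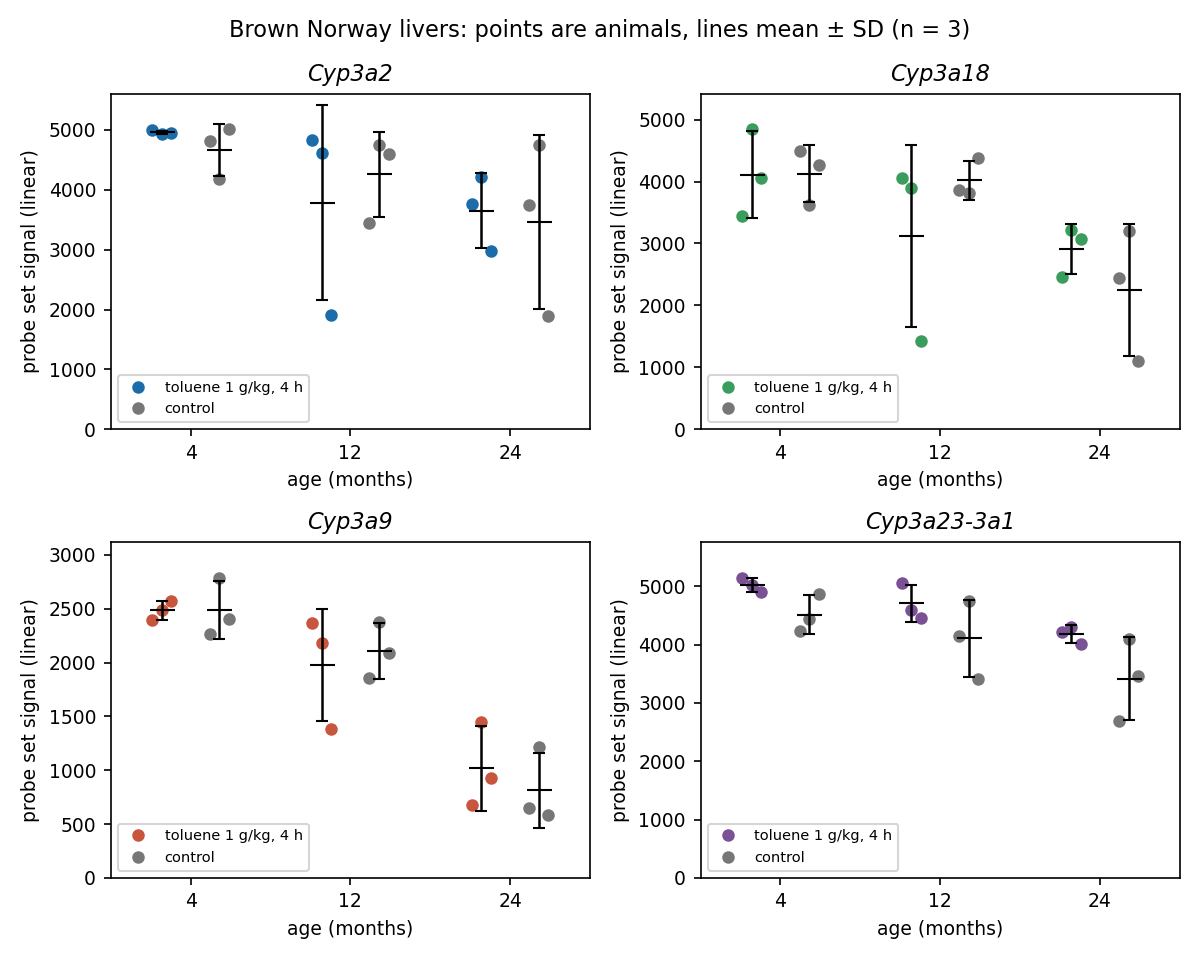
Linear probe set signal of the 4 Cyp3a genes in Brown Norway livers against age in months, with toluene-dosed rats in colour on the left and controls in grey on the right of each age, points for animals and lines for mean ± SD (n = 3 each). Cyp3a9 is low at 24 months in dosed and control rats alike, and a single 12-month dosed rat and a single 24-month control are low for both Cyp3a2 and Cyp3a18.

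None of the lists gave a call with age in Brown Norway controls at 24 against 4 months. The counts were 0 of 17 regulators, 0 of 11 genes of the growth hormone axis, 0 of 12 partners and haem genes, 0 of 14 other PXR and CAR targets, 0 of 7 of male pattern and 0 of 6 of female pattern. The male-pattern median was a log2 fold change of -0.54, and 0 of the 7 changes were positive. At an unadjusted p under 0.05 by limma there were 3 of the 7 of male pattern and 1 of the 6 of female pattern. PXR (Nr1i2) had a log2 fold change of -0.16, CAR (Nr1i3) of -0.12 and Por of 0.68, and none of them passed.

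A pair of Brown Norway rats stood apart in Cyp3a2 and Cyp3a18 together. The dosed 12-month replicate 3 had signals of 1906 for Cyp3a2 and 1425 for Cyp3a18, and the control 24-month replicate 3 had 1886 and 1108. These were the lowest 2 of the 18 signals of each gene. Each rat was also among the lowest 2 of the strain for 5 of the 7 male-pattern genes. Their mean log2 deviation from the strain's median over those genes was -0.74 and -0.68, against -0.32 to 0.24 in the other rats. Their GAPDH 3'/5' ratios were 0.801 and 0.818, against 0.774 to 0.944 over the strain. Their median correlations with the strain's other arrays were 0.9585 and 0.9701, against 0.9522 to 0.9808 over the strain.

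Over the 18 Brown Norway arrays Cyp3a2 and Cyp3a18 had an r of 0.903 with each other. Cyp3a2 was most like Cyp2c13 (0.899), Obp3 (0.894), Dhrs7l1 (0.890), Rdh16 (0.876) and Slc22a8 (0.848), and most opposed to Lss (-0.929), Echdc1 (-0.893) and Hsd17b7 (-0.875). Lss and Hsd17b7 are enzymes of cholesterol synthesis. Cyp3a18 was most like Dhrs7l1 (0.965), Gpat4 (0.931), Hao2 (0.931), Cyp2c13 (0.911) and Slc22a8 (0.909), and most opposed to Idi1 (-0.894), Echdc1 (-0.886) and Dbi (-0.885). Cyp3a9 was most like Inmt (0.959), a methyltransferase of indole amines, followed by Slc17a4 (0.874), Stac3 (0.858), RGD1311745 (0.844) and Cyp2d4 (0.837), and most opposed to Lgals3bp (-0.908), Mgmt (-0.853) and Psme1 (-0.848). Cyp3a23-3a1 was most like Stard13 (0.856), Egf (0.840), Nfx1, Phkb and Spink1l, and most opposed to RT1-DMb (-0.915), Sash3 (-0.911) and Ostf1 (-0.910). Unlike in F344 livers, all pairs of members had a positive r in Brown Norway livers, from 0.396 to 0.903, a difference that was not tested. The points share ages and doses, and in Cyp3a2 and Cyp3a18 the pair of low rats.

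**Figure D4:**
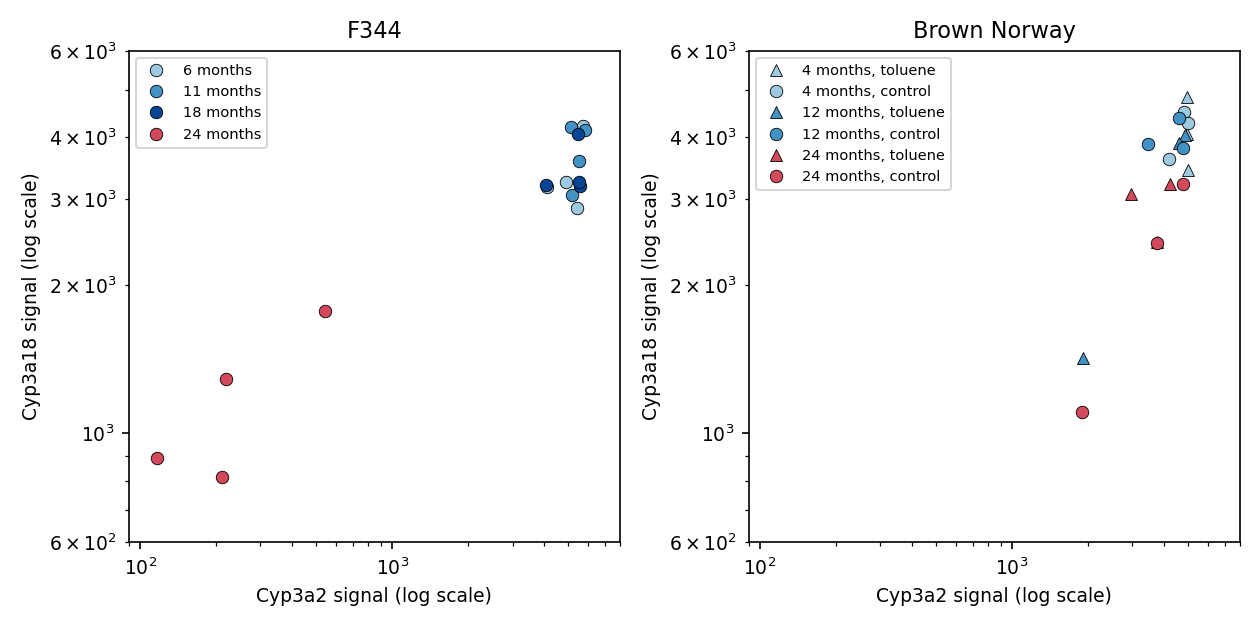
Linear signal of Cyp3a18 (vertical) against that of Cyp3a2 (horizontal) on logarithmic axes, with 1 point an animal, coloured by age, and triangles for toluene-dosed rats. In F344 livers the 4 rats of 24 months lie apart at low values of both genes, and in Brown Norway livers 2 rats lie low in both, at 1906 and 1886 for Cyp3a2.

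The question of the toluene arm was whether a solvent cleared by P450s alters the family within hours, and whether age alters that. No Cyp3a gene passed at any age. At 4 months limma called 0 of 4 (0 at an unadjusted p under 0.05), where 0.0233% of genes were called. At 12 months it called 0 of 4 (0 unadjusted), where 0.0349% were called. At 24 months it called 0 of 4 (1 unadjusted, Cyp3a23-3a1), where 0.0582% were called.

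Cyp3a23-3a1 came nearest. Its signals were 5145, 5031 and 4899 in dosed rats of 4 months, against 4229, 4446 and 4877 in controls. At 12 months they were 5067, 4601 and 4461 in dosed rats, against 4155, 4749 and 3417 in controls, and at 24 months 4214, 4311 and 4012 in dosed rats, against 2699, 4105 and 3455 in controls. At 4 months all 3 dosed rats lay above all controls, the nearest pair being 4899 in a dosed rat and 4877 in a control, and at 12 and 24 months the groups overlapped. The log2 fold changes were 0.16, 0.21 and 0.31 at 4, 12 and 24 months. Their mean was 0.22 (SE 0.08), with an unadjusted p of 0.0165 by limma and an adjusted p = 0.8375, which did not pass, and 0.0699% of genes were called in that mean.

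Cyp3a2 had signals of 4995, 4937 and 4946 in dosed rats of 4 months, 4836, 4612 and 1906 at 12 months, and 3762, 4216 and 2975 at 24 months, and at each age they overlapped with the controls above. Cyp3a18 had 3439, 4840.2 and 4057 in dosed rats of 4 months, 4050.2, 3896 and 1425 at 12 months, and 2455, 3213 and 3068 at 24 months, again overlapping with controls. Over the 3 ages the mean log2 fold change was -0.01 for Cyp3a2 (95% confidence interval -0.41 to 0.40), -0.01 for Cyp3a18 (-0.46 to 0.45) and 0.07 for Cyp3a9 (-0.28 to 0.42). These means rest on 3 dosed and 3 control rats at each of the 3 ages, and changes within the intervals are not excluded. Cyp3a9 signals of dosed rats, given above, also overlapped with those of controls at each age.

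The effect of toluene at 24 months minus that at 4 months, and at 12 minus 4 months, was tested for each member as an interaction, and limma called 0 of 4 in both, with 0 at an unadjusted p under 0.05. Of all genes 0.0116% and 0% were called in these interactions. The other PXR and CAR targets gave 0 of 14 in the mean of the 3 ages, and PXR (Nr1i2) and CAR (Nr1i3) each had a log2 fold change of -0.10 there. Por had 0.61 (limma adjusted p = 0.8375). The single call of the partner and haem list was Alas1, which makes the first haem precursor. It averaged 2491 ± 75.3 in dosed rats of 4 months, against 681 ± 57.5 in controls (SD, n = 3 each), 3.67-fold higher (limma adjusted p = 0.007631). At 12 months it averaged 2752 ± 118 in dosed rats, against 754 ± 139 in controls (SD, n = 3 each), 3.69-fold higher (limma adjusted p = 0.005421). At 24 months it averaged 928 ± 197 in dosed rats, against 533 ± 216 in controls (SD, n = 3 each), and did not pass (log2 fold change 0.87, limma adjusted p = 0.2838). In the interaction of 24 minus 4 months, 0 of the 12 partner and haem genes tested were called, Alas1 included. A difference between ages in the response of Alas1 was thus not established. The 4-month call on Alas1 was lost without 4-month control replicate 2 or 3, without dosed replicate 1 or 3, or without the filter on low signals. The 12-month call was lost without 12-month control replicate 2 or with only the compared groups in the fit. Nr0b2, a nuclear receptor that represses bile acid synthesis, was called at 12 months (log2 fold change 2.92, limma adjusted p = 0.03659), a call lost under several other settings, among them leaving out dosed replicate 3 of 12 months.

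Across strains only the change with age was compared. The change of Cyp3a2 in F344 rats from 6 to 24 months exceeded that in Brown Norway controls from 4 to 24 months by a log2 difference of -3.89 (SE 0.45, limma adjusted p = 1.232e-06), from -4.42 in F344 and -0.53 in Brown Norway rats. For Cyp3a9 the difference was 1.65 (SE 0.42, limma adjusted p = 0.07479), from -0.04 in F344 and -1.68 in Brown Norway rats, and did not pass. Cyp3a18 differed by -0.56 (limma adjusted p = 0.7997) and Cyp3a23-3a1 by 0.30 (limma adjusted p = 0.6888). Of male-pattern genes 7 of 7 were called with a lower change in F344 rats (median log2 difference -3.65), and 5 of 7 with only the compared groups in the fit. Of female-pattern genes 2 of 5 tested, Cyp2c12 and Trim24, were called with a higher change. Fmo1 of that list went the other way (log2 difference -1.07) and did not pass. Among the members 1 of 4 was called, where 0.49% of 7964 genes with the same probe set in both strains were called. The starting ages and housing differed between strains, and array processing may have differed, so strain and these conditions cannot be told apart.

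**Figure D5:**
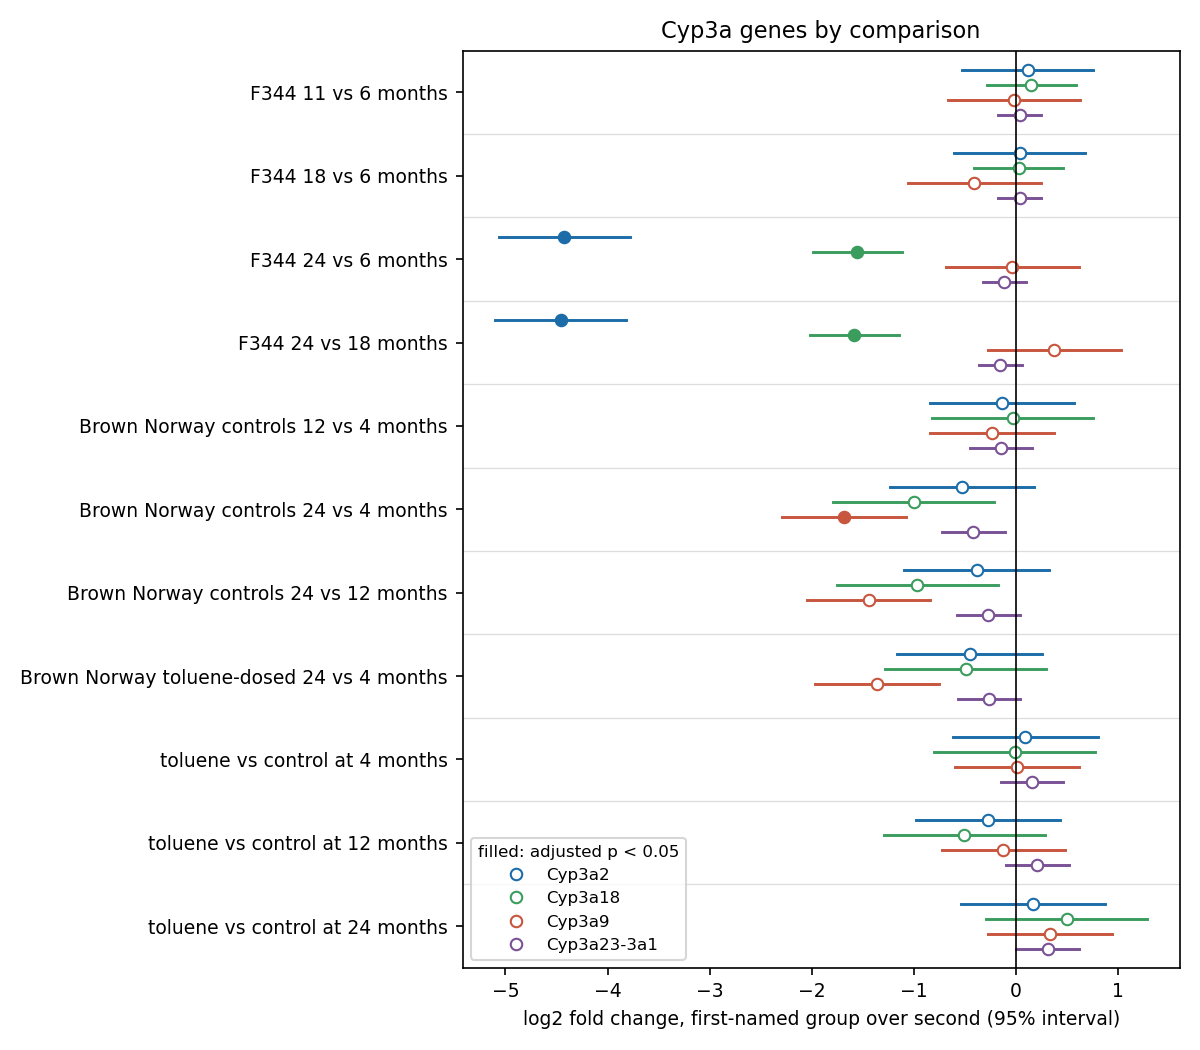
Log2 fold changes of the 4 Cyp3a genes with 95% confidence intervals, by comparison, as older minus younger age or toluene-dosed minus control. The F344 comparisons of 24 months set Cyp3a2 and Cyp3a18 far below 0, the 3 Brown Norway comparisons of 24 months have intervals of Cyp3a9 below 0, as do those of Cyp3a18 and Cyp3a23-3a1 in controls at 24 against 4 months and of Cyp3a18 in controls at 24 against 12 months, and the toluene intervals for Cyp3a2, Cyp3a9 and Cyp3a18 cover 0.

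Markers of other cell types and RNA quality were read beside these results. The hepatocyte markers gave 0 of 6 calls, with summed signals of 38306 to 39999 in F344 rats at 24 months and 37597 to 39243 at 6 months, so the defining hepatocyte genes were present throughout. Macrophage markers were called higher for 3 of 8 (Cd68, Clec4f and Csf1r) at 24 against 6 months in F344 rats, with summed signals of 3380.5 to 4519.1 at 24 months and 2097.4 to 2979.4 at 6 months. In Brown Norway controls 2 of 8 (C1qb and Cd163) were called higher at 24 against 4 months, with sums of 3339.7 to 6271.5 at 24 months and 1693.8 to 2111.9 at 4 months. In dosed rats the sums were 2033.9 to 3226.1 at 24 months and 1775.2 to 2728.9 at 4 months. Lymphocyte markers were called higher for 2 of 3 in F344 rats (Cd8a and Ptprc) and 1 of 2 in Brown Norway controls (Jchain) in the same comparisons. Neutrophil markers were called for 2 of 2 in F344 rats (S100a8 and S100a9) and 0 of 2 in Brown Norway controls. At 18 against 6 months in F344 rats, 2 of 8 macrophage markers (Cd68 and Csf1r) and 1 of 2 neutrophil markers (S100a9) were called higher. At 24 against 18 months limma called 0 macrophage, 0 lymphocyte and 0 neutrophil markers (0, 1 and 0 at an unadjusted p under 0.05). That 1 was Cd8a, at the floor on 3 arrays at 18 months, with a log2 fold change of 0.79 (limma adjusted p = 0.08012). The macrophage sums were 3380.5 to 4519.1 at 24 months and 3252 to 4725.7 at 18 months. These marker genes are named after their values were seen. Stellate, endothelial and cholangiocyte markers gave 0 calls in both. The part of other cell types in the Cyp3a results was not tested further, and in whole liver fewer cells of a type and less RNA per cell cannot be told apart. The GAPDH 3'/5' ratio reached 1.38 to 2.17 in F344 rats of 24 months and 1.66 to 4.35 in those of 6 months, with 1.31 to 7.33 over the strain, while Brown Norway arrays stayed at 0.774 to 0.944. Without the 5 F344 arrays above a ratio of 2.5, the log2 fold change of 24 against 6 months was -4.38 for Cyp3a2 (limma adjusted p = 0.001217) and -1.69 for Cyp3a18 (limma adjusted p = 0.01049).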

How the data were processed

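Total RNA of whole liver (TriReagent and a column cleanup, per the labels' protocols) was measured on 34 arrays. What the authors deposited is an intensity on a linear scale for each probe set. The submitters' processing notes name MAS5 and RMA, without version, role or order, and scan dates were not used here. The number of arrays limits the precision, since an array has no count depth. Per-sample columns not used numbered 0.

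Of 24946 probe sets, 17584 had 1 gene symbol, 393 several and 6916 none (53 array controls aside). Where a gene had several probe sets, that of highest mean log2 signal in the strain stood for it. Signals under 32 were set to 32, and the test took genes above 32 on 3 or more arrays in Brown Norway (8586 genes) and on 4 or more in F344 rats (9214 genes). Group means were fitted in each strain with limma 3.58.1 in R 4.3.3 (lmFit, eBayes). Benjamini-Hochberg adjustment ran over all genes of the strain within a comparison, with a threshold of 0.05, and not across comparisons. The strain difference used both fits' estimates for 7964 genes, in a t-test over their combined standard error. The code was tested on simulated data.

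All 4 members and, per list and comparison, up to 4 called genes of smallest p were to be named, with Nr1i2, Nr1i3 and Por, and the 5 most alike and 3 most opposed genes. The members and lists were chosen with earlier results of these data known. Replicate numbers follow accession order and pair nothing. Promoters came from RefSeq (GRCr8), matched by symbol for 4 of 4 members, and identity was from a global alignment (Biopython 1.88). Alternatives were the choice of probe set, floor, filter, scaling, array weights, the GAPDH ratio as a covariate or a limit, the groups in the fit, dosed for control rats, and leaving out each array.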

Additional observations from a re-analysis of the deposited data

Results flagged for a closer look

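In the F344 rats of 18 months Cyp3a18 and Cyp3a2 each had 1 animal far from the other 3. For Cyp3a18 replicate 1 was high at 4071, and the gap to the next animal was 0.933 of the group's range. For Cyp3a2 replicate 3 was low at 4062, a gap of 0.929 of the range. Both gaps exceed Dixon's 95% critical value for 4 animals, 16 groups were tested, and chance marks about 1 group in 20. The Cyp3a18 value lay within the ranges at 6 and 11 months. The Cyp3a2 value lay just below the lowest signal at 6 months (4095) and further below the lowest at 11 months (5123).

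The change of Cyp3a2 with age differed between the strains, by a log2 value of -3.893 (F344, 24 against 6 months, minus Brown Norway controls, 24 against 4 months), as tested in the difference itself.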

How the results depend on the processing

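Under the alternatives 1735 of 1752 member values stayed on their side of the threshold, 7 lost and 10 gained a call, and 0 called values reversed. Among the 1735, 66 values that passed in neither setting changed sign. In F344 rats, 2 members passed at 24 against 6 and at 24 against 18 months under every alternative run, with log2 fold changes of 24 against 6 months from -4.83 to -4.09 for Cyp3a2 and -1.77 to -1.40 for Cyp3a18 when single arrays were left out. The Brown Norway call on Cyp3a9 at 24 against 4 months was less firm, and the count was 0 without a filter on low signals (limma adjusted p = 0.09104), with only the compared groups in the fit (0.4684) and with dosed rats in place of controls (0.0739). Without a filter more genes were tested, and with only the compared groups fewer samples set the spread. At 24 against 12 months the count was 1 with array quality weights (0.03866) and, added after seeing the data, with control and dosed rats averaged (0.01954). Leaving out single arrays gave counts of 0 to 1 at 24 against 4 and at 24 against 12 months, the call at 12 months being gained without 12-month dosed replicate 3 (0.02349) or 24-month control replicate 2 (0.01633). For the strain difference the counts were 1 to 2. Cyp3a9 joined without 12-month dosed replicate 3, 24-month control replicate 2, 24-month dosed replicate 2, F344 18-month replicate 1 or 2, or F344 6-month replicate 4 (0.01578 to 0.04947). The causes of these shifts were not tested otherwise. The fit with only the compared groups is the same as the fit reported for the mean of the 3 ages and was not run for it. No paired analysis was possible because the labels give each animal its own number and no pairing across groups.

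With 3 or 4 animals a group, small changes such as those of Cyp3a23-3a1 were not resolved. All member signals were well above the floor, so signal over background does not limit them.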
